A study of Mus musculus with 9 samples.

Results

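Canonical NF-kB signalling was described here through 10 genes of the 46517 in the deposited table: the subunits Rela, Rel and Nfkb1, the inhibitors Nfkbia, Nfkbib, Nfkbie, Nfkbiz and Tnfaip3, and the targets Traf1 and Icam1. They were taken by symbol, with earlier results of these data known, and each symbol matched 1 row. The libraries are bulk RNA of C57BL/6 mice older than 18 months, and the labels' protocols speak of splenocytes. The wild-type group had 3 spleens, numbered 1, 4 and 5. The plckGAPDH mice gave 4 spleens, 3 of them numbered 343, 508 and 547 and the other in a column without an animal number, called the unnumbered spleen here. A plckGAPDH spleen titled 331 has no column of that number. The labels do not say whether the unnumbered column is that animal or a further part of a numbered spleen, so n = 4 counts columns. The plckGAPDH mice also gave 2 lymph nodes, numbered 455 and 508 and titled 455_MES and 508_LN. These titles do not say whether both came from the same site. Animal 508 gave both a spleen and a lymph node. The plckGAPDH mice carry extra Gapdh driven by the promoter of Lck, a gene of the T lineage, and the labels call them tumour-developing. No treatment is recorded. Nothing in the labels says that each spleen came from a different mouse, so the p-values reflect only how far these samples spread.

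NF-kB proteins are transcription factors that wait in the cytoplasm in complex with inhibitors of the IkB family. Signals from antigen receptors, Toll-like receptors and TNF receptors activate the IKK kinase complex, which marks the IkB proteins for destruction and frees the subunits to enter the nucleus. Several inhibitors are themselves targets of NF-kB, so that their RNA is often read as a sign of recent pathway activity, and the pathway supports survival and division of lymphocytes. NF-kB was a subject of the study of this mouse line, and the comparison of the spleens asks whether the RNA of these genes differs with the transgene. Transport of NF-kB into the nucleus was not measured by these libraries.

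The promoters of genes that respond to NF-kB often hold kB motifs, so the stretch upstream of each gene was searched before the values are given. The motif was the 10-base kB consensus (GGG, a purine, any 2 bases, 2 pyrimidines, CC), read on both strands in the 250 bases upstream of each RefSeq start (GRCm38.p6). The RefSeq table had entries for 8 of the 10 genes, all except Nfkb1 and Nfkbiz. The motif was found upstream of 4 of these 8, against 8.23% of all genes in that table. Among the genes tested between spleens that had an entry, the share was 10.4%. The matches are printed 5′ to 3′ on the strand of the gene, with the motif in capitals, because they show which inhibitors and which subunit carry these letters close to their start.
Nfkbia, chr12:55492657-55492686, minus strand: tgactggcttGGAAATTCCCcgcgcctgac
Tnfaip3, chr10:19015516-19015545, minus strand: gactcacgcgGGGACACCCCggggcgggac
Tnfaip3, chr10:19015411-19015432, minus strand: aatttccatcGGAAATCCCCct
Nfkbie, chr17:45555584-45555613, plus strand: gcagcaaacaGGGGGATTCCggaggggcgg
Rel, chr11:23771042-23771071, minus strand: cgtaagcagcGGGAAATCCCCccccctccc
The capitals of Rel hold overlapping matches, and the first Tnfaip3 stretch matches on both strands. Tnfaip3 had 2 entries. Both printed stretches belong to the same entry, and the other had no match. Both also lie inside the span of the gene given below, so they are upstream of that RefSeq start only. In Nfkbia the motif ended 20 bases before the start. The whole upstream window of Nfkbia, the inhibitor with the highest RNA level, is given as context (chr12:55492648-55492897, minus strand).
Nfkbia: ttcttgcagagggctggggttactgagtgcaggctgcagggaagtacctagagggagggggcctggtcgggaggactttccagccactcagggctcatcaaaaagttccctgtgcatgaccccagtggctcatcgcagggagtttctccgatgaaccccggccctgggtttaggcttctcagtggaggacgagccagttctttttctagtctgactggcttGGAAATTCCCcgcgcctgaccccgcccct
No match upstream of Rela, Nfkbib, Traf1 or Icam1 says only that these letters are not in these windows. A match is a description of the sequence and no measurement of binding.

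All 10 are protein-coding genes. In GENCODE M21 (GRCm38, the assembly called mm10) Rela lies on chromosome 19 from 5637483 to 5648130, Rel on chromosome 11 from 23736847 to 23770970 and Nfkb1 on chromosome 3 from 135584655 to 135691547. Nfkbia lies on chromosome 12 from 55489410 to 55492647, Nfkbib on chromosome 7 from 28758251 to 28767512, Nfkbie on chromosome 17 from 45555703 to 45563169 and Nfkbiz on chromosome 16 from 55811375 to 55838899. Tnfaip3 lies on chromosome 10 from 19000910 to 19015657, Traf1 on chromosome 2 from 34941750 to 34961772 and Icam1 on chromosome 9 from 21015985 to 21028817. Exons of Nfkbib overlap opposite-strand exons of Ccer2 (314 bases) and Sirt2 (42 bases), and exons of Icam1 overlap 511 opposite-strand bases of Gm47079. The kit kept strand, but no source says that the counting used it, so the values of Nfkbib and Icam1 are uncertain to that extent.

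Values are FPKM, fragment counts scaled to transcript length and library size. Depth was estimated at 23800000 to 34700000 fragments per library, and the lowest value among the 10 genes, Rel in lymph node 455, stood for about 323 fragments, so counting error was small beside the spread between libraries. The columns summed to between 1028802 FPKM (wild-type spleen 4) and 2667329 FPKM (lymph node 508). The most abundant gene of each library, mt-Rnr2 or the small RNA Rn7s1, held 14.98% to 33.5% of that sum. Gapdh was at 299, 348 and 338 FPKM in wild-type spleens 1, 4 and 5 and at 430, 505, 890 and 894 in the plckGAPDH spleens (log2 fold change 0.97, SE 0.49, limma FDR 0.635). All 6 T cell and all 6 B cell markers reached 1 FPKM in every library. Content differed between libraries: summed erythroid markers were 68910 FPKM in wild-type spleen 5 against 1.6 to 1943 in the other spleens, summed neutrophil markers were 4.66 in wild-type spleen 4 against 484 to 3520 in the other spleens, and pancreas enzymes summed to 143 to 294 FPKM in wild-type spleen 1, spleen 343 and lymph node 455 against at most 7.49 elsewhere.

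Among the subunits, Rela, which carries the transactivation domain of the main NF-kB dimer, was the most even. It was at 16.5, 10.5 and 19.7 FPKM in wild-type spleens 1, 4 and 5, at 16.6, 10.1, 17.0 and 17.8 in plckGAPDH spleens 343, 508, 547 and the unnumbered spleen, and at 8.69 and 7.05 in lymph nodes 455 and 508. The spleen groups overlapped, with 1 low library in each. Nfkb1, which encodes p105, the precursor of the DNA-binding subunit p50, was the most abundant subunit in every library. It was at 74.1, 36.5 and 74.8 FPKM in the wild-type spleens, at 51.6, 24.9, 100 and 70.5 in the plckGAPDH spleens and at 41.1 and 16.2 in the lymph nodes. Spleen 547 lay above every wild-type spleen and spleen 508 below them. Rel, which encodes c-Rel, a subunit typical of lymphocytes, was at 13.4, 5.92 and 10.8 FPKM in wild-type spleens, at 7.20, 4.81, 13 and 12.9 in plckGAPDH spleens and at 1.76 and 2.93 in lymph nodes. No plckGAPDH spleen exceeded the highest wild-type spleen, and both lymph nodes lay below all 7 spleens.

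The inhibitors Nfkbia and Tnfaip3 had higher means in plckGAPDH spleens. Nfkbia, which encodes IkB-alpha, the inhibitor that is degraded and made again within one cycle of signalling, was at 48.9, 38.4 and 64.3 FPKM in wild-type spleens and at 69.9, 51.6, 72.7 and 96.2 in plckGAPDH spleens. Thus 3 of 4 plckGAPDH spleens exceeded every wild-type spleen, and spleen 508 lay between them. Lymph nodes held 29.7 and 37.8 FPKM, less than every spleen. Tnfaip3, which encodes A20, an enzyme that edits ubiquitin chains and stops signalling upstream of IKK, was at 13.1, 16.4 and 11.3 FPKM in wild-type spleens and at 26.3, 13.03, 22.9 and 33.0 in plckGAPDH spleens. The pattern matched that of Nfkbia in that spleens 343, 547 and the unnumbered spleen lay above all wild-type spleens and spleen 508 among them. In lymph nodes 455 and 508 Tnfaip3 was at 13.3 and 8.75 FPKM.

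Nfkbiz, which encodes the nuclear IkB-zeta, a regulator of secondary response genes, varied most of the inhibitors among plckGAPDH spleens and least among wild-type spleens. It was at 9.84, 11.8 and 9.20 FPKM in wild-type spleens, at 15.9, 4.43, 15.8 and 30.2 in plckGAPDH spleens and at 5.24 and 3.39 in lymph nodes. The wild-type values spanned 1.28-fold and the plckGAPDH values 6.82-fold, with 3 spleens above and spleen 508 below every wild-type spleen. Nfkbie, which encodes IkB-epsilon, was at 24.97, 12.9 and 24.0 FPKM in wild-type spleens, at 30.5, 7.94, 39.7 and 25.1 in plckGAPDH spleens and at 8.59 and 4.34 in lymph nodes. Spleens 343 and 547 lay above the wild-type range, spleen 508 below it, and the unnumbered spleen only just above its upper end (25.11 against 24.97 FPKM). Nfkbib, which encodes IkB-beta, was at 10.6, 7.07 and 14.7 FPKM in wild-type spleens, at 10.5, 9.49, 17.6 and 13.9 in plckGAPDH spleens and at 8.27 and 7.09 in lymph nodes. Only spleen 547 left its wild-type range among the spleens.

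Traf1, which encodes an adaptor of TNF receptors and is a target of NF-kB, had the widest range of the 10 genes. It was at 40.7, 39.2 and 27.1 FPKM in wild-type spleens, at 129, 22.5, 25.8 and 69.8 in plckGAPDH spleens and at 11.8 and 12.4 in lymph nodes. Spleen 343 and the unnumbered spleen lay above all wild-type spleens, and spleens 508 and 547 below them, so the plckGAPDH spleens split on both sides. Traf1 was the highest of the 10 genes in spleen 343 and in wild-type spleen 4. Icam1, which encodes an adhesion molecule and is a target of NF-kB in many cell types, was at 19.4, 19.8 and 22.3 FPKM in wild-type spleens, at 27.9, 14.6, 27.1 and 32.6 in plckGAPDH spleens and at 23.3 and 9.26 in lymph nodes. Again 3 plckGAPDH spleens lay above and spleen 508 below the narrow wild-type range.

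**Figure D1:**
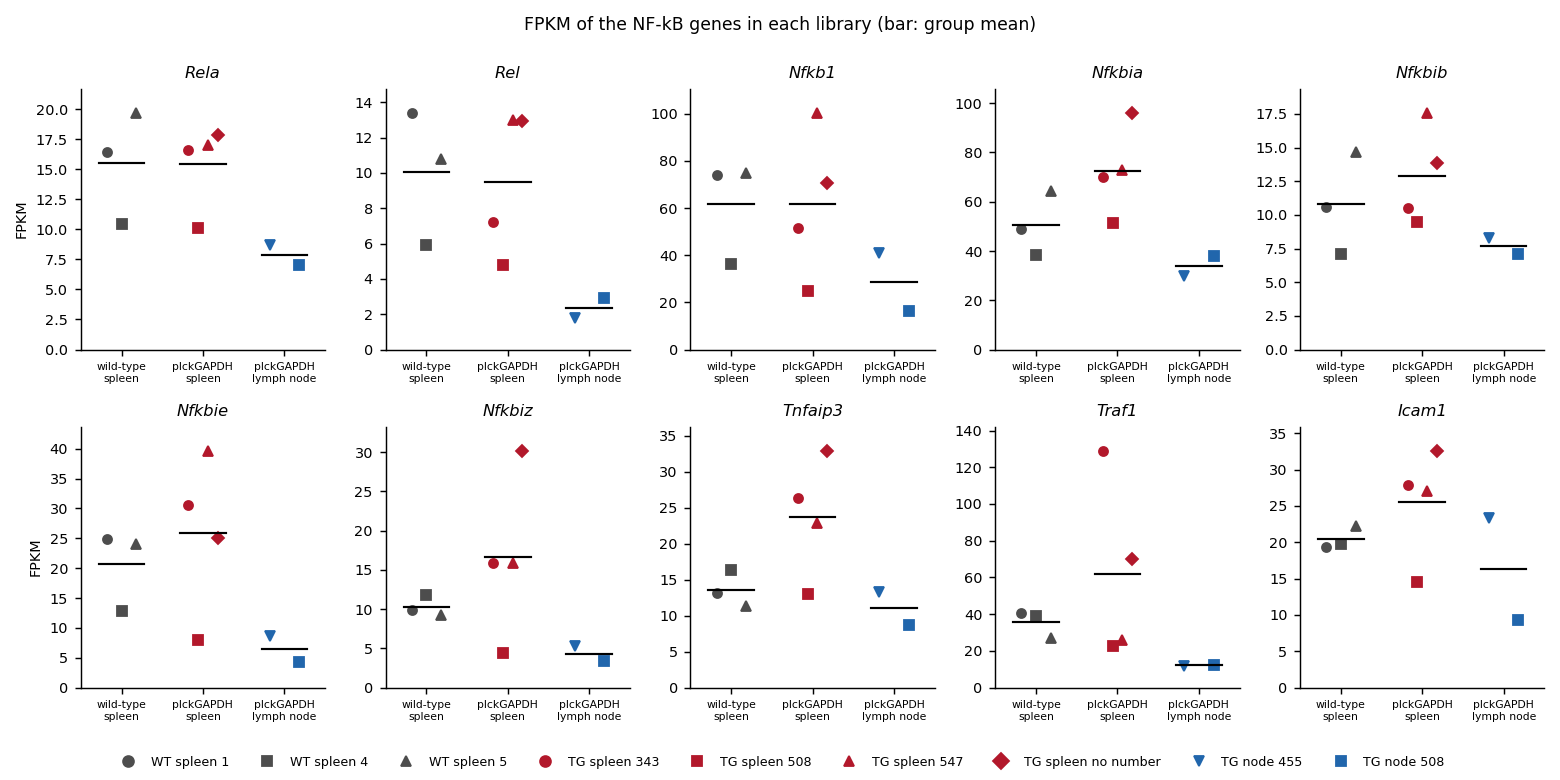
FPKM of each NF-kB gene in the 9 libraries, with a panel for each gene, a symbol for each library and a bar at the group mean. WT (grey) is wild type and TG (red spleens, blue lymph nodes) is plckGAPDH; spleen 508 (red square) was the lowest plckGAPDH spleen for all 10 genes, and Traf1 reached 129 FPKM in spleen 343.

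The plckGAPDH spleens differed among themselves across these genes. Spleen 508 was the lowest of the 4 for all 10 genes, the unnumbered spleen the highest for 5, spleen 547 for 4 and spleen 343 for 1. Spleen 508 was also the lowest of the 4 for 58.3% of the genes tested. With libraries scaled by the median ratio over genes, it was lowest for 5 of the 10 and for 28% of the genes tested. Above every wild-type spleen lay 7 of the 10 genes in spleen 547, 6 in spleen 343, 6 in the unnumbered spleen and 0 in spleen 508. The same was true of 45.8%, 16.4%, 33.4% and 14.1% of the 12607 genes tested. In spleen 508, 7 of the 10 lay below every wild-type spleen, against 47.0% of genes tested. The SD of log2(FPKM + 1) was larger in plckGAPDH than in wild-type spleens for 7 of the 10 genes, against 60.4% of genes tested. The genes most alike over the 9 libraries were Nfkb1 and Nfkbie, whose centred log2(FPKM + 1) differed by 0.23 on average, followed by Rela and Nfkbib at 0.23 and Nfkbia and Nfkbib at 0.23.

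**Figure D2:**
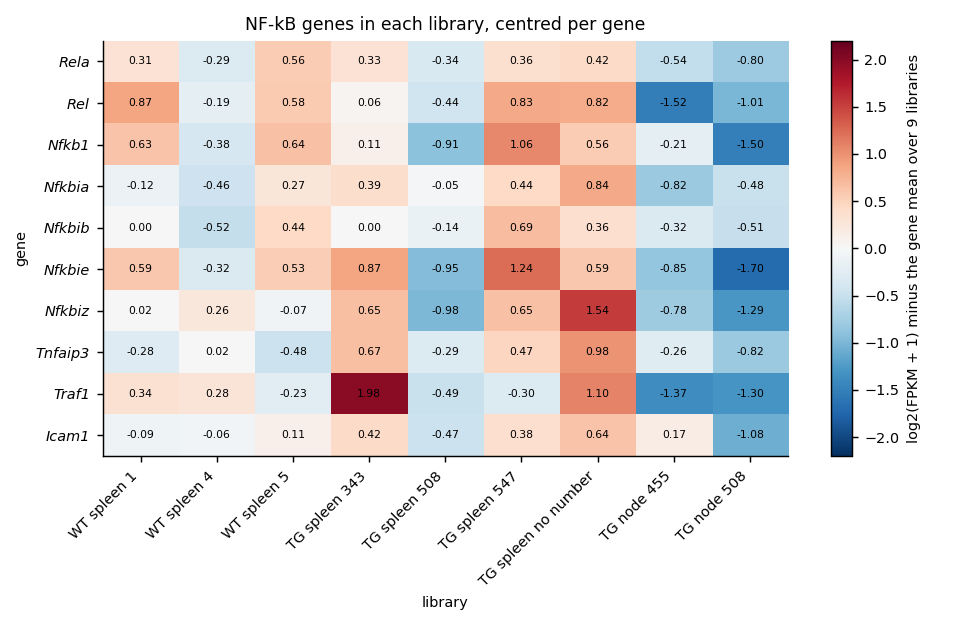
Heat map of log2(FPKM + 1) of the 10 genes (rows) in the 9 libraries (columns), with each gene centred on its mean over the libraries; red is above and blue below that mean, the values are printed, WT is wild type and TG is plckGAPDH. Lymph node 508 and spleen 508 are below the mean for every gene, and the largest value is 1.98 for Traf1 in spleen 343.

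Spleen 508 also stood apart in markers of cell types. In spleen 508 the plasma cell markers summed to 3833 FPKM, while the 3 further plckGAPDH spleens had 46.9 to 181 and the wild-type group 191 to 272. Jchain alone was at 3472 FPKM in spleen 508. In spleen 547, Sdc1, Xbp1, Prdm1 and Tnfrsf17 were at 9.81, 131, 12.2 and 9.71 FPKM, against at most 4.56, 53.7, 5.41 and 0.8 in the wild-type group. Xbp1 (58.4) and Prdm1 (8.59) also lay above that group in the unnumbered spleen, and none of these markers did in spleen 343. The T cell markers summed to 109 FPKM there, the lowest of the spleens, while spleens 343, 547 and the unnumbered spleen had 187 to 659 and the wild-type group 318 to 498. B cell markers summed to 570 FPKM in spleen 508, to 729 to 1142 in the same 3 spleens and to 400 to 1721 in the wild-type group. A list of 9 immediate early and heat shock genes, which can respond to handling of tissue, summed to 147 FPKM in spleen 508 and 89.8 in lymph node 508, against 24.0 to 39.3 in the other 7 libraries; Fos alone was at 59.6 and 29.6 FPKM there. In spleen 508, Fos, Fosb, Jun, Egr1 and Dusp1 were the highest of all libraries, while Ier2 at 12.9 FPKM lay within the wild-type range, Atf3 at 0.53 was the lowest of all libraries, and the heat shock genes Hspa1a and Hspa1b were at 0.08 and 0.67. Macrophage, dendritic cell and endothelial markers were also lowest there among the spleens, with sums of 180, 9.77 and 7.72 FPKM, and antigen receptor genes held 9.04% of its FPKM against at most 1.55% in the further spleens. The unnumbered spleen, highest for 5 of the NF-kB genes, had the highest T cell sum at 659 FPKM. The part of these differences in the values of the NF-kB genes was not tested. In bulk samples such as these, fewer cells of a type and less RNA per cell cannot be told apart.

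None of the 10 genes passed the test between spleens. Spleens were compared with limma on log2(FPKM + 1), 4 against 3, over all genes that reached 1 FPKM in 3 spleens, and a gene was called at a false discovery rate (FDR, Benjamini-Hochberg) under 0.05. All 10 genes passed the filter. Over all genes tested, 1.44% were called (0.206% higher and 1.23% lower in plckGAPDH spleens), and 0 of the 10 were. With antigen receptor genes left out of the fit, no gene was called in either direction. At an unadjusted limma p under 0.05 the counts were 0 of 10 and 8.85% of all genes, and the spleen groups overlapped for all 10, while 7.27% of all genes did not overlap (3.39% higher and 3.88% lower). Of the 10, 7 had positive and 3 negative fold changes, with a median of 0.25 beside 0.02 over all genes.

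The values nearest to a difference were those of inhibitors. The plckGAPDH mean of Tnfaip3 was 23.8 FPKM ± 8.31 (SD, n = 4) and the wild-type mean 13.6 ± 2.57 (SD, n = 3), which gave a log2 fold change of 0.71 (95% interval -0.18 to 1.59, limma FDR 0.732). The same means of Nfkbia were 72.6 ± 18.3 (SD, n = 4) and 50.5 ± 13.1 (SD, n = 3), which is 0.51 on the log2 scale (-0.38 to 1.41, limma FDR 0.882). For Traf1 the log2 fold change was 0.44 (-0.83 to 1.71), which became -0.03 without spleen 343. For Nfkbiz it was 0.40 (-0.74 to 1.54), which became 0.04 without the unnumbered spleen and 0.88 without spleen 508. Icam1 and Nfkbib were both at 0.25, with intervals of -0.61 to 1.11 and -0.60 to 1.1, and Nfkbie at 0.17 (-0.98 to 1.31). Among the subunits, Rela was at -0.00069 (-0.85 to 0.85), Nfkb1 at -0.09 (-1.22 to 1.04) and Rel at -0.10 (-1.06 to 0.85). Each interval spans 0. The lower ends of -1.22 to -0.18 and the upper ends of 0.85 to 1.71 show the size of fall or rise that these samples leave possible. Without spleen 508, all 10 fold changes were positive with a median of 0.56, beside 0.15 over all genes, and the smallest limma FDR was 0.402. Without spleen 343 the median was 0.11, beside 0.05, with 6 positive and 4 negative fold changes. Without wild-type spleen 4 the median was 0.12, beside -0.16 over all genes.

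The common scale of a library cancels when genes are set against Rela in the same library. Nfkbia was 2.97, 3.67 and 3.26 times Rela in wild-type spleens 1, 4 and 5 and 4.21, 5.08, 4.28 and 5.40 times Rela in the plckGAPDH spleens, so that these groups did not overlap. In the lymph nodes the ratio was 3.41 (animal 455) and 5.36 (animal 508). Of the 9 ratios, Nfkbia was the only one without overlap between the spleen groups, and among all genes tested 3.97% were higher and 8.13% lower without overlap. The ratio and its denominator were chosen after the values were seen, so they are a description with no test. Tnfaip3 was 0.797, 1.57 and 0.574 times Rela in wild-type spleens and 1.58, 1.28, 1.35 and 1.85 times in plckGAPDH spleens, where wild-type spleen 4 reached into the plckGAPDH range. Traf1 stood out in spleen 343, at 7.76 times Rela against 1.38 to 3.92 in the other spleens. Rel was 0.547 to 0.816 times Rela in wild-type spleens, 0.433 to 0.765 times in plckGAPDH spleens and 0.203 and 0.416 times in lymph nodes 455 and 508. It was the only 1 of the 9 ratios without overlap between lymph nodes and plckGAPDH spleens, where 5.86% of all genes were higher and 2.51% lower without overlap.

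**Figure D3:**
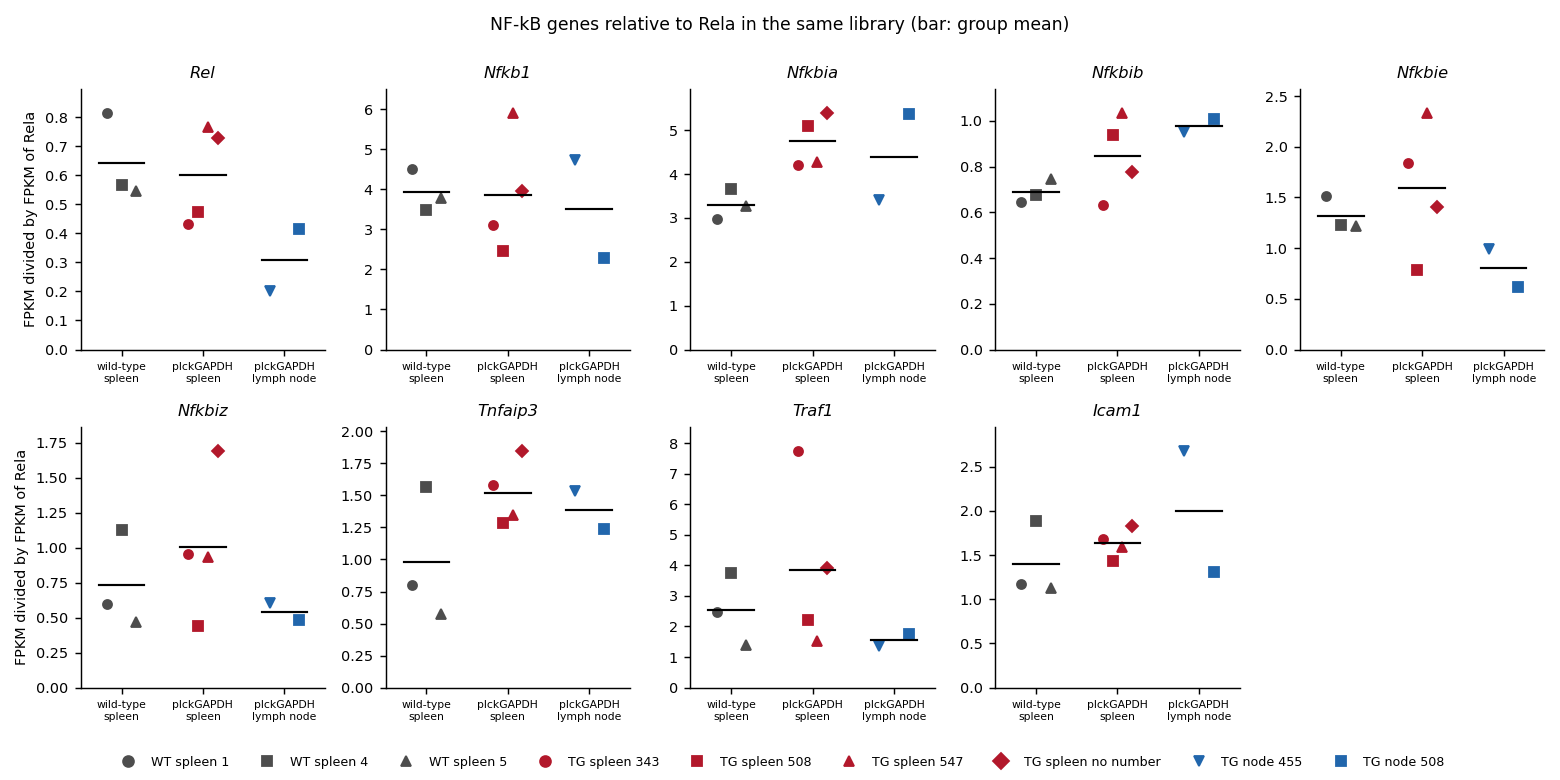
FPKM of 9 NF-kB genes divided by FPKM of Rela in the same library, with a symbol for each library (WT wild type, TG plckGAPDH) and a bar at the group mean. For Nfkbia the plckGAPDH spleens (4.21 to 5.40) lie above the wild-type spleens (2.97 to 3.67), while the other 8 ratios overlap between the spleen groups.

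The libraries were also scaled by the median ratio over genes detected in every library, with factors of 0.546 to 1.4. After it, Nfkbia was at 38.4, 44.0 and 48.2 in wild-type spleens and at 63.7, 65.3, 52.1 and 73.7 in plckGAPDH spleens, with no overlap. It was the only 1 of the 10 without overlap on this scale, where 6.11% of all genes were higher and 6.88% lower without overlap. Spleen 508, which was low as deposited, was the second highest spleen for Nfkbia on this scale. Its Rel at 6.09, Nfkb1 at 31.6, Nfkbie at 10.1 and Nfkbiz at 5.61 remained the lowest among the spleens. With this scaling the spleen fold change was 0.55 (SE 0.22, limma FDR 0.353) for Nfkbia and 0.74 (SE 0.31, limma FDR 0.371) for Tnfaip3. Their unadjusted limma p-values of 0.0376 and 0.0455 made 2 of 10 under 0.05, against 13% of all genes tested with this scaling.

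Lymph nodes of plckGAPDH mice held less of all 10 genes than plckGAPDH spleens as deposited, but most genes of the table were lower there. The fit took all 9 libraries in 3 groups, with 13682 genes at 1 FPKM in 2 libraries, and it called 0.0146% of genes (0.00731% higher and 0.00731% lower) and 0 of the 10. The median of the 10 fold changes was -1.06 on the log2 scale, beside -0.59 over all genes, and 10.8% of all genes had a positive fold change. At an unadjusted limma p under 0.05 there were 7 of the 10 and 11.3% of all genes, all 7 with a limma FDR of 0.359. The groups did not overlap for 5 of the 10, namely Rela, Rel, Nfkbia, Nfkbib and Traf1, all lower in lymph nodes, against 30.5% of all genes (30% lower). Animal 508 stands in both groups, so these samples are not all independent. Plasma cell markers summed to 2027 and 1887 FPKM in lymph nodes 455 and 508, beside 3833 in spleen 508 and at most 181 in the further plckGAPDH spleens. Jchain alone was at 1886 and 1661 FPKM in the lymph nodes. Prdm1 at 8.17 and 8.1 and Tnfrsf17 at 5.49 and 2.51 lay below the 12.2 and 9.71 of spleen 547. Sdc1 at 10.2 and 26.9 lay above the 9.81 of that spleen, and Xbp1 at 117 and 188 on both sides of its 131. B cell markers summed to 364 and 442, below all 4 of these spleens, and neutrophil markers to 38.7 and 56.1 against 602 to 1389. The part of these differences in the values of the NF-kB genes was not tested.

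Traf1, Nfkbie and Rel stood lowest relative to the spleens. The log2 fold change was -1.91 (SE 0.63) for Traf1, -1.71 (SE 0.59) for Nfkbie, -1.58 (SE 0.47) for Rel and -1.50 (SE 0.58) for Nfkbiz, and it was -0.64 (SE 0.40) for Nfkbib and -0.69 (SE 0.45) for Icam1. Without lymph node 508, Icam1 was at -0.07 and Nfkb1 at -0.41, and without lymph node 455 they were at -1.32 and -1.71. Median-of-ratios scaling moved the median of all genes to -0.01. On that scale Rel was at -0.95 (SE 0.33), Nfkbie at -1.01 (SE 0.40) and Traf1 at -1.17 (SE 0.66), while Nfkbib at 0.07 and Icam1 at 0.04 turned to the positive side. Rela was then at -0.15, Nfkbia at -0.30, Tnfaip3 at -0.27 and Nfkb1 at -0.31. With this scaling 2 of 10, Rel and Nfkbie, had an unadjusted limma p under 0.05, against 3.13% of all genes, and the limma FDR was 0.995 for both. Within animal 508 the lymph node held 0.55 to 0.77 of the spleen level of each gene, with a median of 0.66, while the median over 9868 genes was 0.70.

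**Figure D4:**
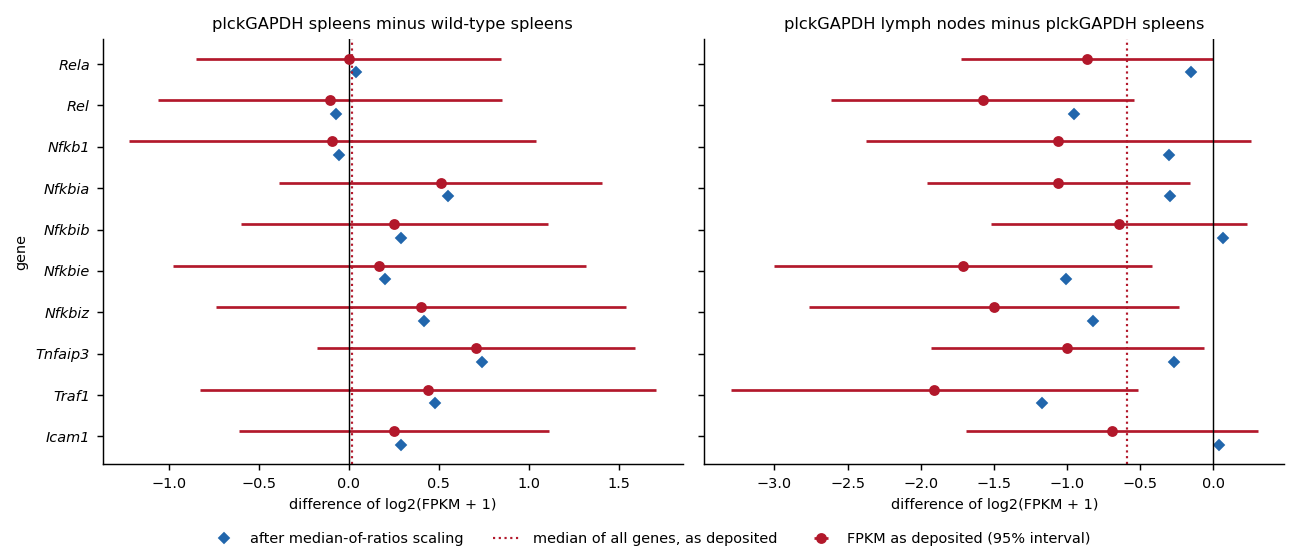
Differences of log2(FPKM + 1) for the 10 genes between plckGAPDH and wild-type spleens (left) and between plckGAPDH lymph nodes and spleens (right). Red points are limma estimates with 95% intervals, blue diamonds the estimates after median-of-ratios scaling, and the dotted line the median of all genes (0.02 left, -0.59 right); all intervals on the left include 0.

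The wider pathway was read from 4 lists, and none of their members was called in either comparison. Between spleens, 16 of 17 receptors and adaptors were tested, with 4 positive and 12 negative fold changes and a median of -0.26. Traf5, an adaptor of TNF receptors, was at -0.98 (SE 0.46, limma FDR 0.581), Tnfrsf1a, the main TNF receptor, at -0.69 and Tlr4, the receptor of bacterial lipopolysaccharide, at -0.50. All 15 genes of the IKK, TAK1, CBM and LUBAC complexes, which carry signals to the IkB proteins, were tested, with 6 positive and 9 negative fold changes and a median of -0.03. Prkcq, the kinase that links the T cell receptor to the CBM complex, was at -1.58 (SE 0.56, limma FDR 0.338), Malt1, the protease of that complex, at -0.90 and Ikbkb, the IKK kinase of the canonical pathway, at -0.55. For Prkcq 1.87 to 16.7 FPKM in plckGAPDH spleens stood against 12.9 to 24.0 in wild-type spleens.

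Other inhibitors and targets gave the same count of calls. The 12 other inhibitors had 5 positive and 7 negative fold changes with a median of -0.04, and the smallest p-values were those of Bcl3, a nuclear IkB protein, at 0.50, Tax1bp1, a partner of A20, at -0.34 and Otud7b, a deubiquitinase, at -0.31. Of 35 other targets 29 were tested, with 19 positive and 10 negative fold changes and a median of 0.18. Il2ra, the interleukin 2 receptor alpha chain, was at 0.28 to 1.31 FPKM in the plckGAPDH group and 2.72 to 3.25 in the wild-type group, or -1.25 on the log2 scale (SE 0.32, limma FDR 0.106). Il1b, the cytokine interleukin 1 beta, was at 0.760 to 4.48 against 5.31 to 18.5 FPKM, or -1.81 (SE 0.51, limma FDR 0.168). Cd44, an adhesion receptor of activated lymphocytes, was at 51.2 to 93.3 against 27.5 to 43.1 FPKM, or 0.99 (SE 0.41, limma FDR 0.475). These 3 were among 5 of the 29 tested targets whose spleen groups did not overlap, 3 higher and 2 lower, beside the 7.27% of all genes (3.39% higher and 3.88% lower). Cell type markers also differed in the same comparison without being called. All 6 T cell markers had negative fold changes (median -0.69), as did both NK cell markers (median -2.22) and all 5 dendritic cell markers (median -0.79). So did all 5 macrophage markers (median -0.56) and 5 of 6 B cell markers (median -0.30). Positive fold changes were found for all 8 neutrophil markers (median 2.09) and 3 of 4 plasma cell markers tested (median 0.76). The neutrophil markers summed to 3520, 4.66 and 484 FPKM in wild-type spleens 1, 4 and 5 and to 602 to 1389 in the plckGAPDH spleens. Wild-type spleen 1 lay above every plckGAPDH spleen for all 8, so these fold changes rest on the low values of the other wild-type spleens, mainly spleen 4. The part of these markers in the values of Prkcq, Il2ra and Il1b was not tested.

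In lymph nodes against plckGAPDH spleens the medians of the 4 lists lay between -0.74 (receptors and adaptors) and -0.85 (other targets), below the -0.59 of all genes. Negative fold changes were found for 15 of 17 receptors and adaptors, 15 of 15 complex genes, 12 of 12 other inhibitors and 26 of 29 other targets. The genes with the smallest p-values were Traf2, Tlr9 and, in the positive direction, Il1r1 (1.17, at 4.59 FPKM in lymph node 455, 0.11 in lymph node 508 and 0.01 to 0.2 in plckGAPDH spleens, and 2.34 without lymph node 508) among receptors and adaptors, Rnf31 and Prkcb among the complexes, Bcl3, Tnip1 and Nfkbid among the inhibitors, and Bcl2a1d, Tnf and Bcl2a1b among the targets. The fold changes of the other 10 genes named here ran from -2.15 (Tlr9) to -0.996 (Tnip1). Bcl2a1b and Bcl2a1d are near-identical copies, so reads may be split between them. The smallest limma FDR in each of the 4 lists was 0.359.

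**Figure D5:**
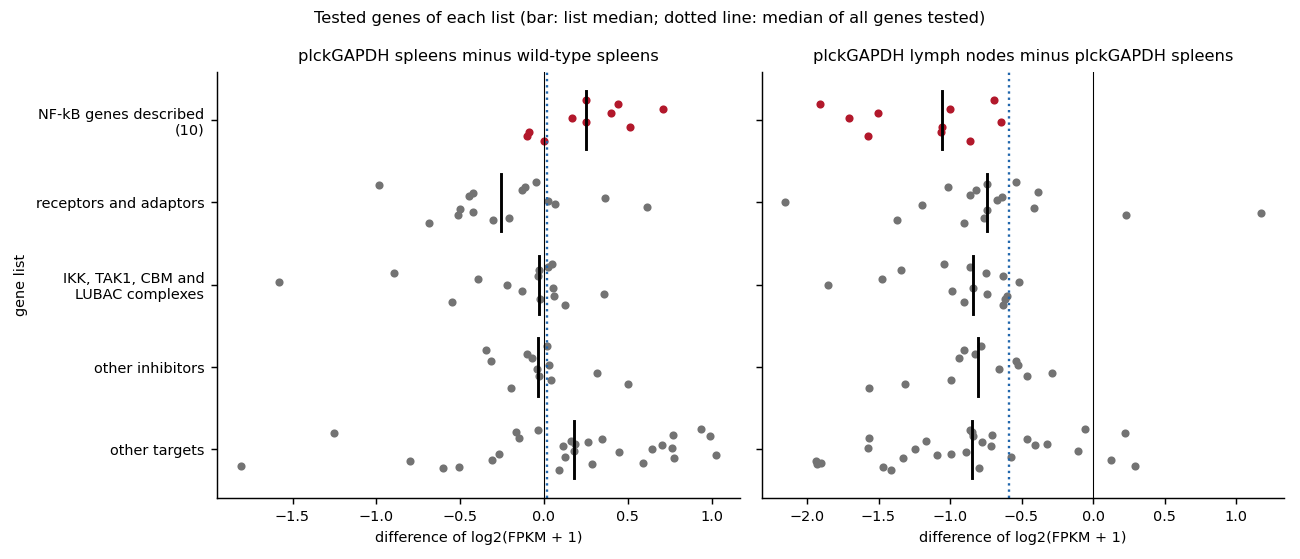
Differences of log2(FPKM + 1) of every tested gene in the 10 NF-kB genes (red) and the 4 pathway lists (grey), between spleens (left) and between plckGAPDH lymph nodes and spleens (right). Black bars are list medians and the dotted line is the median of all genes tested; the median of the 10 is 0.25 on the left and -1.06 on the right.

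The genes whose profile over the 9 libraries lay closest to each of the 10 were mostly no members of the pathway. Closeness was the mean absolute difference of centred log2(FPKM + 1). Rela lay closest to Rbck1, a LUBAC subunit in the list of complexes, at 0.05. Nfkbib lay closest to Emc2 at 0.05, Nfkb1 to Parp2 at 0.10, Nfkbia to Tceanc2 at 0.12 and Icam1 to Abcc5 at 0.13. Tnfaip3 lay closest to Lhfpl4 at 0.13, Nfkbie to Snx18 at 0.15, Nfkbiz to Jade2 at 0.18 and Rel to Prr14l at 0.18. Traf1 lay farthest from its nearest gene, Gm15720 at 0.28, with the lymphocyte transcription factor Ikzf3 at 0.33 next but 1. This distance is not scaled to the spread of a gene, and Traf1 had the widest range of the 10.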

How the data were processed

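FPKM values of 9 libraries were used as deposited, with 2 decimals. Libraries were made from 500 ng of total RNA and a stranded kit, per the labels' protocols, with paired reads of 75 bases. Build mm10, Bowtie2 2.2.6, RSEM, STAR 2.4.0a and featureCounts (Subread 1.5.0-p3) are named in the submitters' processing notes; no source used here says which of them made the FPKM or with which annotation. Depth was estimated from low FPKM of genes with 1 transcript: 83.0% to 88.3% of these values lay within 0.1 fragment (plus rounding) of whole fragments, against 28.6% to 29.4% by chance, once lengths were shortened by 160 to 170 bases. At most 0.257% of values were identical between any of 36 library pairs.

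limma 3.58.1 (R 4.3.3) was run on log2(FPKM + 1) with an intensity trend, over 12607 genes (spleens) and 13682 genes (3 groups), and checked on simulated data. A fold change on this scale understates the change of low genes. Alternatives were a pseudocount of 0.1, no filter, 2 other scalings, sample weights, no trend, omission of antigen receptor genes and omission of libraries. The genes and lists were chosen with earlier results of these data known. Besides the 10 genes and Gapdh, the text names in each pathway list the 3 genes with the smallest p in each comparison, and for each of the 10 its nearest profiles; 1 gene that this rule names is not reported here. Marker genes were summed per library; others named were chosen after their values were seen.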

Additional observations from a re-analysis of the deposited data

Results flagged for a closer look

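In 46 quantities of the plckGAPDH spleens, a library far from the other 3 was looked for by Dixon's gap over range; 6 were found, and chance gives about 1 in 20 groups. Rela was low in spleen 508 at 10.1 FPKM. Ikbkb was low in spleen 508 at 14.6 FPKM. Tlr4 was low in the unnumbered spleen at 2.81 FPKM. The plasma cell markers summed to 3833 FPKM in spleen 508, where Jchain alone was at 3472. The immediate early and heat shock genes summed to 147 FPKM in spleen 508. The pancreas enzymes summed to 143 FPKM in spleen 343.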

How the results depend on the processing

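None of the 10 genes was called in either comparison under any alternative, except that with sample weights, which did not converge and gave wild-type spleen 1 a weight of 24.8, 2 were called higher in plckGAPDH spleens: Nfkbiz (1.02, limma FDR 0.0437) and Tnfaip3 (1.03, limma FDR 0.0119). Counts over all genes moved more. Between spleens, 26 genes were called higher and 155 lower. Higher calls were 14 with a pseudocount of 0.1, 12 with median-of-ratios scaling, 15 when rescaled without mitochondrial and receptor genes, and 123 without wild-type spleen 1 and spleen 343 (chosen after seeing the data). Higher and lower calls were 1 and 73 with no filter, 891 and 972 with sample weights, 0 and 0 without antigen receptor genes, and 3 and 9 without wild-type spleens 4 and 5. With 1 spleen left out, higher calls ran from 5 (without wild-type spleen 5) to 81 (without spleen 343), and lower calls from 67 (without wild-type spleen 5) to 189 (without the unnumbered spleen). Between lymph nodes and plckGAPDH spleens 1 gene was called in each direction. Higher and lower calls were 5 and 0 with no filter, 5 and 2 with sample weights and 2 and 6 with only these groups fitted; lower calls were 4 with a pseudocount of 0.1 and 0 with median-of-ratios scaling, and higher calls were 2 when rescaled. With 1 library left out, higher calls ran from 0 (without lymph node 455) to 26 (without lymph node 508) and lower calls from 0 to 3.

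Some fold changes changed sign. Between spleens Rela became 0.0386 with median-of-ratios scaling and 0.0188 with sample weights. Nfkbie became -0.0275 when rescaled and -0.151 without wild-type spleens 4 and 5. Without wild-type spleen 1 and spleen 343, Rela was at 0.0141, Rel at 0.208, Nfkb1 at 0.105 and Otud7b at 0.0612. With 1 spleen left out, Rela ran from -0.244 to 0.183, Rel from -0.408 to 0.148, Nfkb1 from -0.428 to 0.28, Nfkbie from -0.124 to 0.632 and Traf1 from -0.0282 to 0.795. In lymph nodes, median-of-ratios scaling turned Nfkbib to 0.066, Icam1 to 0.0418 and Gapdh to 0.146. The cause of these moves was not tested. No paired analysis was possible because the groups compared share fewer than 2 animal numbers.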

Other observations

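Spleen 343, where Traf1 was highest, also held the most Birc2, which encodes cIAP1, a ubiquitin ligase that binds TRAF proteins. Birc2 was at 99.3 FPKM there, at 35.6 to 43.9 in spleens 508, 547 and the unnumbered spleen, at 21.1 to 25.2 in the wild-type group and at 22.5 and 22.7 in lymph nodes. The paralogue Birc3 was at 89.3 FPKM in spleen 343 and at 82.3 in wild-type spleen 5. The unnumbered spleen, where Nfkbia, Tnfaip3, Nfkbiz and Icam1 were highest, held the most Bcl2a1b, a survival gene, at 111 FPKM, while spleens 343, 508 and 547 had 34.1 to 68.2 and the wild-type group 32.4 to 43.7. It also held 70.6 FPKM of the TNF receptor gene Tnfrsf1b against 8.51 to 27.8 in the other spleens. These genes were picked after their values were seen.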
